A study of Mus musculus with 72 samples.

Results

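Integration hot spots are stretches of the mouse genome in which barcoded reporter integrations lay unusually close together. An integration on chromosomes 1 to 19 was counted as a hot spot member when 7 or more other integrations of any pool lay within 100 kb of it, and members less than 100 kb apart were merged into 1 hot spot. By this rule, which used positions and no expression values, 894 of 17857 listed integrations were members of 164 hot spots. The other 16606 integrations on chromosomes 1 to 19 served for comparison. The 357 integrations on chromosomes X and Y had at most 5 neighbours on X and 2 on Y.

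The integrations came from TRIP, in which very many reporter genes that differ by a short random barcode are placed into the genomes of cultured cells and counted together by sequencing. The cells were EBRTcH3 mouse embryonic stem cells, a line with a tetracycline-controlled transactivator expressed from the ROSA26 locus, grown with leukemia inhibitory factor and inhibitors of MEK and GSK-3. Reporters carried the mouse PGK (mPGK) promoter and entered the genome with mPB transposase. Cells of low eGFP signal were sorted and grown for 5 days, and 6 small pools (mPGK-A to mPGK-F) were isolated and grown for 7 days. Each pool was then split into 2 cultures grown apart for 7 more days, which are technical replicates. Hot spot members and other integrations thus share the cell line, promoter, sort and cultures, and are set apart by position. The deposited table gives RNA and DNA read counts of barcodes but none of the cells' own genes, so the labelled cell type could not be checked against marker genes.

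The piggyBac transposon inserts at the short sequence TTAA, of which the genome holds very many, and is known to enter open, transcribed chromatin more often than closed chromatin. A reporter with a fixed promoter can give very different amounts of RNA at different places, which is known as a position effect. The PGK promoter drives the housekeeping gene for phosphoglycerate kinase, an enzyme of glycolysis, and is active in most cell types.

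Expression was measured as the log2 ratio of a barcode's share of RNA reads to its share of DNA reads, with 0.5 RNA reads added, averaged over both cultures, minus the median of all barcodes in that pool. A value of 0 is thus the pool median, and 2 log2 units are 4-fold. The ratio is an average over all cells that carry a barcode, so fewer expressing cells and less RNA per expressing cell cannot be told apart. In a culture, the listed barcodes summed to between 2880244 and 3508366 RNA reads and to between 3386477 and 3693449 DNA reads. Reads were amplified by PCR without molecular identifiers, so they are not independent molecules.

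The barcodes that follow identify the members on which the description of single integrations turns, given as the deposited table lists them, in capitals throughout because every base belongs to the barcode. The first 3 are the members with the highest expression, and the barcode of the first of them is shorter than the others shown. The next 4 belong to 2 pairs of integrations that lay 1 base apart on opposite strands and whose expression differed most, and the 2 after those are the pair at 1 base whose expression differed least. The last 2 are the lowest member of all and the highest member of the same hot spot.
mPGK-E, chr11:69494934, plus strand: ATGCCATGAATCTGA
mPGK-F, chr6:39384478, minus strand: GACACAAGGGTCTAAT
mPGK-A, chr8:91569147, minus strand: TGCTGGTTATGCCCGT
mPGK-E, chr14:86726282, minus strand: TAGATTATTATTAGAA
mPGK-B, chr14:86726283, plus strand: GCATAAGTTCTGGCGA
mPGK-A, chr4:10953525, minus strand: CACACCGACTTAACGC
mPGK-F, chr4:10953526, plus strand: GCTTGCCGAAGACCCC
mPGK-C, chr14:73246161, minus strand: CTCACGGTAGTGGTGC
mPGK-D, chr14:73246162, plus strand: CGCGAAGGCTACCCAA
mPGK-F, chr10:20877377, minus strand: TGTTGAGCTACTTGAC
mPGK-F, chr10:20830191, plus strand: ACAAATTACAATTTTG

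Hot spots lay on all 19 autosomes and drew on all 6 pools. They had between 1 and 26 members with a median of 4, and their width, from the first to the last member, had a median of 69.0 kb and reached 494 kb. A single member made up 35 hot spots, 49 had 2 to 4 members, 30 had 5 to 7 and 50 had 8 or more. Neighbouring members of a hot spot lay a median of 10355 bp apart. Another 24 integrations with fewer than 7 neighbours lay inside 16 of the hot spots.

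The pools gave 153, 147, 118, 162, 149 and 165 members in the order A to F, which was between 4.63% and 5.61% of their listed integrations. All 6 pools were present in 21 hot spots, and of the 50 hot spots with 8 or more members, 48 drew on 4 or more pools. Only 1 hot spot with 2 or more members held a single pool. Within hot spots 16.7% of member pairs came from the same pool and in different hot spots 16.8%. On the plus strand lay 50.1% ± 3.45 of members and 49.2% ± 0.777 of other autosomal integrations (SD over pools, n = 6 each), with differences between -2.56 and 4.75 percentage points in single pools (exact sign-flip permutation test, two-sided, p = 0.469, adjusted p = 0.547). The mean difference of 0.93 points was 5.42 with a 50 kb radius and between 0.17 and 1.63 without 1 pool, the lowest without mPGK-C. A hot spot with 6 members was the only one with 5 or more whose members all lay on 1 strand.

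Chromosome 14 stood out by number. It held 134 members in 17 hot spots, 15.0% of all members, and 14.1% of its 948 integrations were members. Chromosome 15 followed with 81 members (9.23% of its integrations), chromosome 4 with 74 (6.58%) and chromosome 10 with 70 (7.17%). By share, chromosome 12 came next after chromosome 15, with 63 members (8.27% of its 762 integrations). At the low end, chromosome 13 held 6 members (0.692% of its 867 integrations) in 3 hot spots and chromosome 19 held 11 members in 2. Of the 164 hot spots, 44 had another hot spot within 1 Mb, while the median gap between consecutive hot spots of a chromosome was 5.76 Mb.

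Reporters in hot spots gave, on average, more RNA per DNA copy than reporters elsewhere on the autosomes in each of the 6 pools. The pool means of hot spot members were 1.05 at the lowest (mPGK-F), 1.39 at the median and 1.80 at the highest (mPGK-D), against -0.31, -0.25 and -0.23 for the other autosomal integrations. The 6 pools did not overlap: the lowest mean of members lay above the highest mean of the others. Members averaged 1.40 ± 0.25 and others -0.26 ± 0.04 log2 units (SD over pools, n = 6 each), a difference of 1.67 (SE 0.11, between 1.29 and 2.12 in single pools), or 3.17-fold. In the exact two-sided sign-flip permutation test over pools this gave p = 0.03125, the smallest p that 6 pools allow, and after Benjamini-Hochberg adjustment over 7 such tests p = 0.0547, which missed the threshold of 0.05. The pools were small samples of 1 sorted cell population, so these p-values measure the spread between pools of 1 experiment.

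Both ends of the distribution differed. Members more than 4-fold below their pool median made up 5.59% ± 1.25, against 20.7% ± 0.552 of other autosomal integrations (SD over pools, n = 6 each). Members more than 4-fold above it made up 41.1% ± 3.79, against 16.3% ± 0.426 of the others. The spread was narrower, with an SD over integrations of 2.13 ± 0.06 for members and 2.41 ± 0.07 for others, a difference of -0.29 that was -0.10 with 5 RNA reads added in place of 0.5. Each of these 3 differences had the same direction in 6 of 6 pools, with p = 0.03125 (the smallest possible) and adjusted p = 0.0547 in the exact sign-flip permutation test. At the extremes, 80 members (8.95%) lay more than 16-fold above the pool median, against 2.13% of the others, so that members, 5.11% of autosomal integrations, supplied 18.4% of the 434 integrations of that range. More than 16-fold below lay 20 members (2.24%), against 6.66% of the others.

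**Figure D1:**
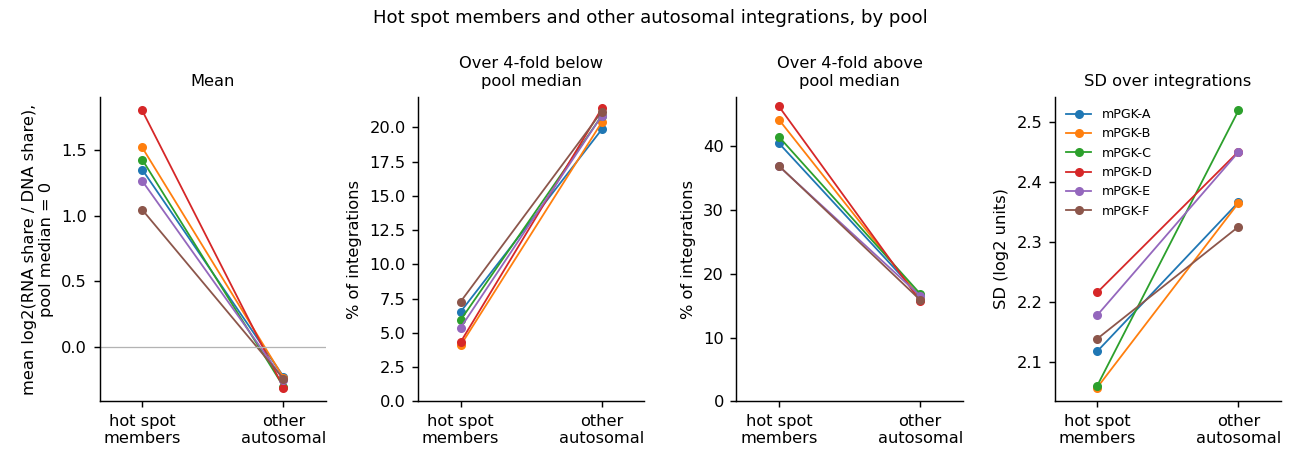
Hot spot members (left in each panel) and other autosomal integrations (right) in the 6 pools, 1 line per pool: mean expression in log2 units relative to the pool median, percent of integrations over 4-fold below and over 4-fold above the pool median, and SD over integrations. In each panel all 6 lines run the same way; mean expression lies between 1.05 and 1.80 in members and between -0.31 and -0.23 in others. The axes of the first and last panel do not start at 0.

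Every member had RNA reads in at least 1 culture. Over both cultures members had between 5 and 110025 RNA reads with a median of 1638, and other autosomal integrations between 0 and 116800 with a median of 525.5. None of the 894 members lacked RNA reads, which allows a share of up to 0.336% (3 counts of the total), against 181 of 16606 others (1.09%, exact Clopper-Pearson 95% interval 0.938% to 1.26%, counting error only). Their DNA counts had the same median of 1669 reads in both groups, and the median log2 DNA share, which reflects how common a clone is, was -12.07 ± 0.19 for members and -12.06 ± 0.13 for others (difference -0.013, SE 0.052, between -0.16 and 0.11 in single pools; p = 0.8125, adjusted p = 0.8125 in the exact permutation test, n = 6 pools each). Members made up 5.01% ± 0.403 of listed barcodes and 5.12% ± 0.620 of DNA reads but 11.9% ± 2.98 of RNA reads (SD over 6 pools), the RNA share being between 9.45% in mPGK-C and 16.6% in mPGK-D.

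For single integrations, RNA counts were tested against DNA counts within the pool by edgeR's quasi-likelihood test, with the pool's median ratio set to 0. At an adjusted p under 0.05 (Benjamini-Hochberg over all barcodes of the pool), 580 members (64.9%) were called higher than the pool's median ratio, against 36.9% of all barcodes. Called lower were 107 members (12.0%), against 33.7% of all barcodes. By pool, members were called higher in 61.2% to 69.1% of cases and other autosomal integrations in 34.2% to 37.0%. The median edgeR log2 ratio was 1.50 over members, against -0.00010 over all barcodes tested.

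Expression followed the number of neighbours on both sides of the limit of 7. Integrations without a neighbour within 100 kb averaged -1.39 log2 units over pools (n = 3079 integrations), those with 1 to 3 neighbours -0.26, those with 4 to 6 neighbours 0.67, members with 7 to 9 neighbours 1.27 (n = 738) and members with 10 or more 1.99 (n = 156). The order was the same in all 6 pools. At the edge of the rule, the 380 members with exactly 7 neighbours averaged 1.30 ± 0.26, and the 699 integrations with exactly 6 averaged 0.98 ± 0.24 (SD over pools, n = 6), so the values just inside and just outside the limit were close. The share more than 4-fold below the pool median was 6.50% of members with 7 to 9 neighbours and 1.28% of members with 10 or more, and 36.2% of integrations without a neighbour.

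Integrations near hot spots lay between members and distant integrations. This comparison was added after the members' values had been seen. Integrations up to 100 kb outside a hot spot averaged 0.78 ± 0.15 (n = 757), those at 100 to 300 kb 0.21 ± 0.17, those at 300 kb to 1 Mb -0.03 ± 0.14, those at 1 to 3 Mb -0.31 ± 0.07 and those over 3 Mb away -0.39 ± 0.03 (SD over 6 pools). The 24 integrations inside hot spots with fewer than 7 neighbours averaged 1.75 ± 0.85, but single pools held only 1 (mPGK-A) to 7 (mPGK-F) of them. Pools count equally in this mean, and their values ran from 0.40 in mPGK-F to 2.88 in mPGK-E. Members lay 0.63 above the integrations within 100 kb of them (SE 0.12), these lay 1.17 above the integrations over 3 Mb away (SE 0.06), and the integrations at 300 kb to 1 Mb lay 0.36 above those over 3 Mb away (SE 0.05). Each difference had the same sign in 6 of 6 pools (exact sign-flip permutation test, p = 0.03125, the smallest possible, also after adjustment over these 3 tests). The number of neighbours was lower at larger distances too, with a mean of 4.97 within 100 kb and 1.94 over 3 Mb away. Among integrations with 0 to 3 neighbours alone, the pool means were 0.36 ± 0.63 within 100 kb (n = 100), 0.11 ± 0.21 at 100 to 300 kb, -0.24 ± 0.15 at 300 kb to 1 Mb, -0.50 ± 0.13 at 1 to 3 Mb and -0.62 ± 0.06 over 3 Mb away.

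**Figure D2:**
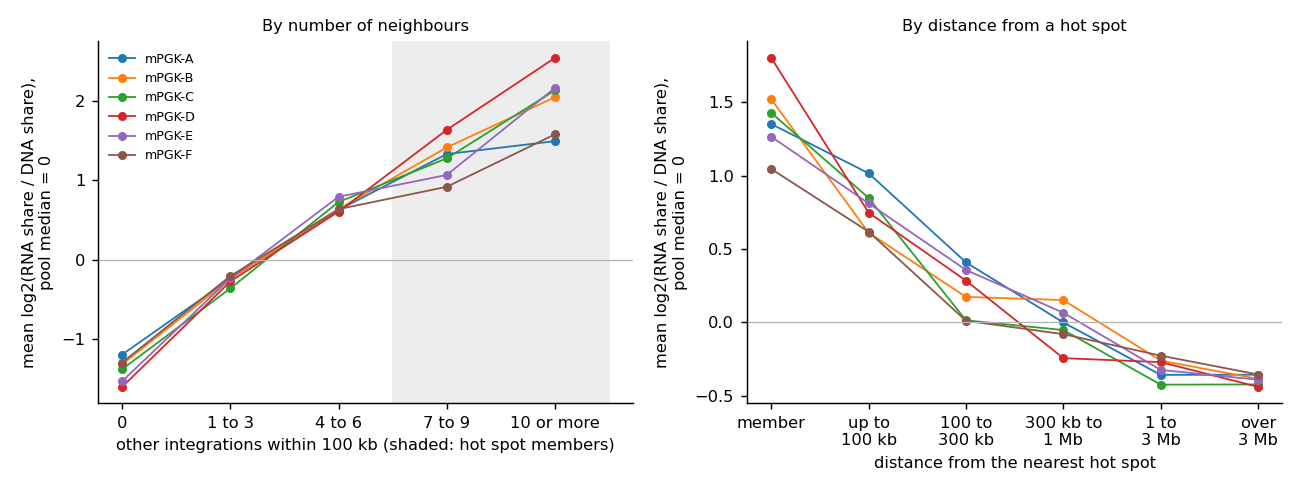
Mean expression in log2 units relative to the pool median, 1 line per pool. On the left integrations are grouped by the number of other integrations within 100 kb, with hot spot members shaded, and on the right by distance from the nearest hot spot (the 24 integrations inside hot spots that are not members are left out). In all pools the mean is lowest without neighbours (-1.39 over pools) and highest with 10 or more (1.99), and the mean over pools is lower in each class farther away, down to -0.39 over 3 Mb away.

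Members averaged higher than the other integrations of the same chromosome on 19 of 19 autosomes, by amounts that varied. The members of chromosome 11 averaged 2.16 against 0.27 for its other integrations, those of chromosome 8 averaged 2.04 against -0.28, and those of chromosome 14 averaged 0.91 against -0.79. On chromosome 14 other integrations were low as well, and the difference of 1.71 was close to that over all autosomes. In the pools the difference on chromosome 14 was between 1.03 and 2.64 and positive in 6 of 6. The smallest differences were those of chromosome 19, where 11 members averaged 0.00044 and others -0.13, and of chromosomes 16 and 13, with 0.64 and 0.65. The mean of chromosome 19 rested on 1 member, at chr19:40449481, which lay at -6.61. Its 10 remaining members, in chr19:14678883-14819739, averaged 0.66.

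Hot spots differed among themselves, and many members did not follow the mean of their hot spot. Of the 164 hot spots, 138 had a mean above the pool median. Among the 50 with 8 or more members, 16 had a mean over 2 log2 units and 5 had a mean below 0. Of the 80 hot spots with 5 or more members, 47 held both a member that edgeR called higher and a member it called lower at an adjusted p under 0.05. In 16 of the 80 every member lay above the pool median, and in 6 of the 80 every member was called higher. Over all members 64.9% were called higher and 12.0% lower, against 36.9% and 33.7% of all barcodes. Whether these counts of hot spots differ from what such shares alone would give was not tested.

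**Figure D3:**
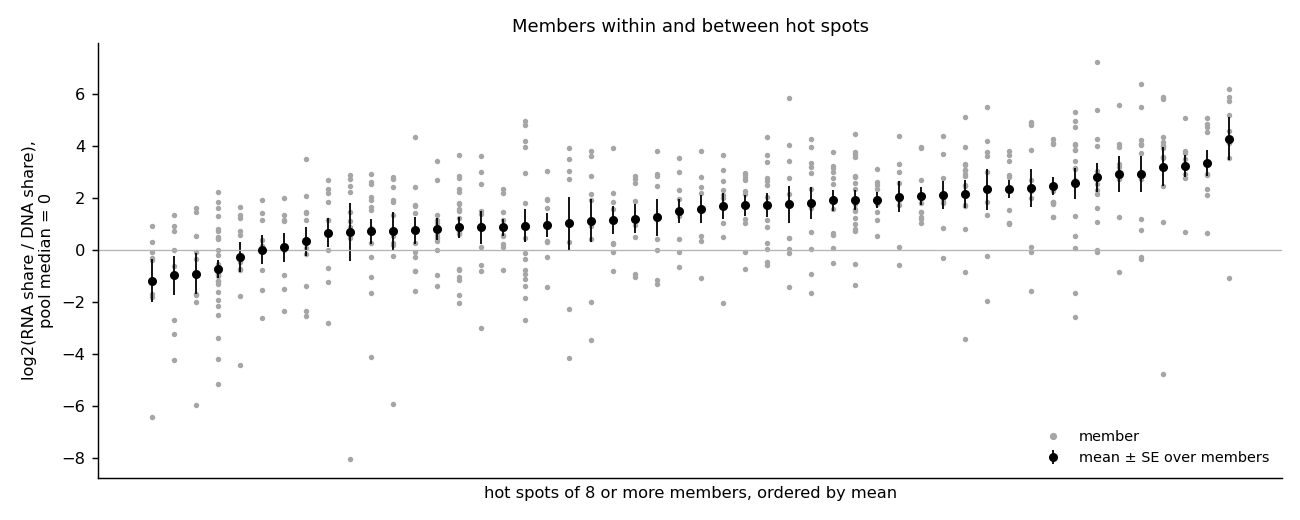
The 50 hot spots with 8 or more members, ordered by mean expression in log2 units relative to the pool median. Grey points are members, black points are means and bars are SE over members, which are different integrations and not replicates. Means run from -1.19 to 4.26, while members of a single hot spot spread over 2.57 to 10.9 log2 units.

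The largest hot spot had a mean below the pool median. It covered chr14:79366415-79860005, had 26 members from all 6 pools with 14 on the plus strand and 12 on the minus strand, and its values were -5.16 at the lowest, -0.83 at the median and 2.24 at the highest. Its mean was -0.74 (SE 0.35 over members), near the -0.79 of the other integrations of chromosome 14, and its pool means ran from -1.55 to -0.02. By edgeR at an adjusted p under 0.05, 7 of its 26 members were called higher and 8 lower, against 36.9% and 33.7% of all barcodes. SEs of hot spot means, here and below, describe the spread of different integrations, which are not replicates of a hot spot. The lowest and the highest member lay near each other on the plus strand: chr14:79798029 in mPGK-F had 29 and 5 RNA reads for 1066 and 1331 DNA reads in the 2 cultures, while chr14:79789573 in mPGK-A had 275 and 278 RNA reads for 219 and 135 DNA reads. Below the pool median also lay the means of chr12:77081080-77261305 (-1.19, 8 members), chr14:86700585-86796225 (-0.97, 8 members), chr16:49723843-49848005 (-0.92, 9 members) and chr12:11156695-11272119 (-0.27, 10 members). The medians over their members were closer to the pool median, at -0.36, -0.32, -0.35 and 0.05 in this order. None of these 5 was low throughout, since their highest members lay at 0.92, 1.35, 1.62 and 1.66, and at 2.24 in the largest. The lowest member of chr12:77081080-77261305, at chr12:77142727 in mPGK-D, had 26 RNA reads in the first culture and 0 in the second for 1016 and 1022 DNA reads.

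The other hot spots with the most members lay above the pool median. The 18 members of chr15:97075280-97321639 averaged 0.86 (SE 0.40), the 17 of chr3:121033586-121321558 averaged 1.91 (SE 0.38), the 16 of chr17:71056382-71274958 averaged 2.55 (SE 0.59) and the 15 of chr8:80528152-80677067 averaged 2.15 (SE 0.53). The highest number of neighbours of any member, 15, was found in the hot spot on chromosome 8. Means of 0.71 (SE 0.49) and 1.73 (SE 0.45) were found for the 15 members of chr15:76844357-77085076 and the 13 of chr10:21479537-21640334. The 13 members of chr11:69356693-69598864 averaged 2.78 (SE 0.57) and included the highest member of all, while none of them was called lower.

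Values along the 16 members of chr14:76325752-76582281 changed in blocks. The first 7, up to chr14:76448838, lay between -2.70 and -0.13 in 3 pools. The next 6, from chr14:76481137 to chr14:76539188, lay between 1.81 and 4.93 in 2 of those pools, mPGK-E and mPGK-F. The last 3 lay at -0.35, 0.47 and 0.98. The blocks were noticed after the values had been seen and were not tested.

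**Figure D4:**
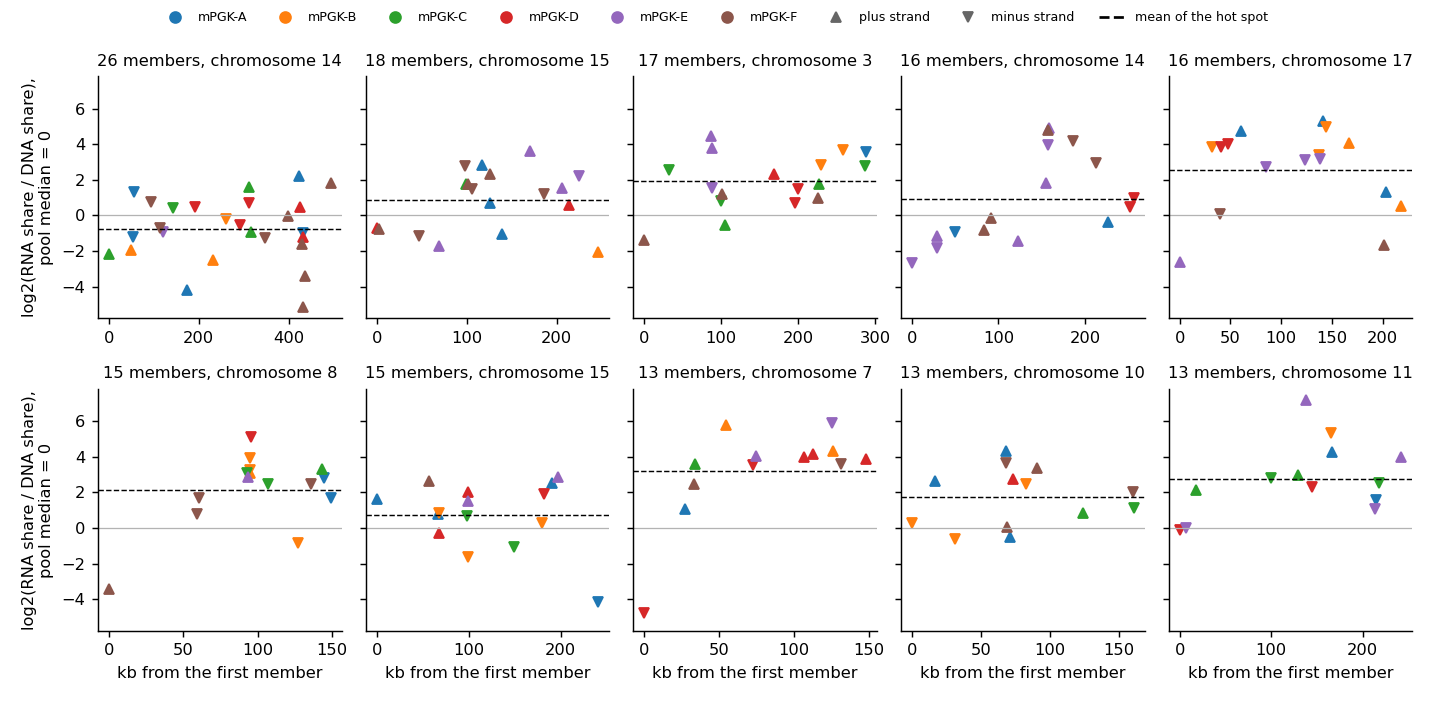
Expression of each member of the 10 hot spots with the most members against its distance in kb from the first member. The y axis is in log2 units relative to the pool median, colours are pools, triangles pointing up and down are the plus and minus strand, and dashed lines are the means, which run from -0.74 in the hot spot of 26 members to 3.19 in that of 13 members on chromosome 7.

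The highest means, among hot spots with 8 or more members from 4 or more pools, belonged to places of 8 to 13 members. In chr5:120029190-120124327 the 8 members, in order of position, had 4.58, -1.09, 5.71, 5.18, 4.09, 6.16, 5.87 and 3.54 log2 units, and a mean of 4.26 (SE 0.83). The single low value, at chr5:120030912 in mPGK-B, had 85 and 140 RNA reads for 693 and 575 DNA reads and was called lower (edgeR, adjusted p = 0.0305; the call was lost without the RNA or the DNA of the first culture, at log2 ratios of -0.95 and -0.96), while its neighbours on both sides lay more than 16-fold above the pool median. In chr7:80627081-80775025 the pattern was alike: 12 of 13 members had values between 1.06 and 5.88 and were called higher, and the outermost, chr7:80627081 in mPGK-D, lay at -4.76 with 60 and 26 RNA reads for 3530 and 3477 DNA reads. Means of 3.32, 3.21 and 2.90 were found for chr1:35939275-36039514 (9 members, all called higher, although the call at chr1:36008012 was lost without the RNA of the first culture or the DNA of the second), chr12:12729526-12823766 and chr8:91463364-91590441. The hot spots chr12:11156695-11272119 and chr12:12729526-12823766, with means of -0.27 and 3.21, were consecutive on the chromosome, 1457 kb apart. Consecutive hot spots with 5 or more members each differed in their means by 1.31 on average at gaps of up to 1 Mb (7 pairs) and by 1.38 at larger gaps (31 pairs).

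Hot spots also varied in the SD over their members, and whether by more than so few members alone would give was not tested. The tightest of those with 8 or more members from 4 or more pools, chr12:88659487-88761195, had 8 members at 1.12, 1.45, 2.32, 2.61, 1.77, 2.50, 3.09 and 0.51 in order of position (SD 0.86), all above the pool median. The hot spot before it on the chromosome, chr12:88155527-88253525, is named because its mean of 4.64 over 5 members was seen to be high, and each of its members was called higher. SDs of 1.08 and 1.12 were found for chr15:77669208-77801948, whose 10 members lay between 1.01 and 3.93 and were all called higher (the call at chr15:77801948 was lost without either RNA library or the DNA of the second culture), and for chr11:107219872-107393730. The widest, chr10:20801952-20908528, had 9 members at 0.44, 2.71, 0.88, 2.20, 1.45, 2.86, -8.02, 2.45 and 1.09 (SD 3.37). Its outlying member, chr10:20877377 in mPGK-F, had 9 RNA reads in the first culture and 0 in the second for 1998 and 1094 DNA reads (edgeR log2 ratio -7.01, adjusted p = 8.08e-05), and the other 8 members of the hot spot lay above the pool median. SDs of 2.92 and 2.69 belonged to chr11:29539939-29624007 and to the hot spot on chromosome 7 described above.

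Most of the variance among members lay within hot spots. Over the 859 members of the 129 hot spots with 2 or more members, a one-way variance component gave 19.1% of the variance between hot spots, an SD of 0.93 between them and of 1.92 within them. With the first culture alone the share between hot spots was 20.0%, and with the second alone 16.8%. In hot spots with 8 or more members it was 21.7%. The variance that the difference between the cultures leaves in a member's mean was 4.80% of the variance within hot spots, which does not count any error that both cultures of a clone share. The cultures ranked members alike, with a Spearman coefficient between 0.941 and 0.955 in the 6 pools over 118 to 165 members each (no test, since members share libraries and places).

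Likewise, 2 members of the same hot spot were little more alike than 2 members of different hot spots. Pairs of members of the same pool and hot spot differed by 1.80 (mPGK-B) at the lowest, 2.18 at the median and 2.57 (mPGK-E) at the highest pool mean, against 2.28, 2.37 and 2.43 for pairs in different hot spots. The ranges overlapped. The difference was -0.21 log2 units (SE 0.12), pairs of the same hot spot differed less in 5 of 6 pools, and the exact two-sided sign-flip permutation test gave p = 0.156 and adjusted p = 0.219. Over all pools, pairs within a hot spot differed by a mean of 2.11 (3492 pairs) and pairs in different hot spots by 2.37 (395679 pairs), and 13.3% of pairs within a hot spot differed more than 16-fold, against 17.6% of the others.

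By distance, pairs are described without a test, because they share members. Pairs under 1 kb apart differed by a mean of 1.85 (115 pairs), pairs at 1 to 5 kb by 1.63, at 5 to 20 kb by 1.91, at 20 to 50 kb by 2.07, at 50 to 100 kb by 2.16 and at 100 kb or more by 2.44 (663 pairs). The last value was no lower than that of pairs in different hot spots. Only hot spots at least 100 kb wide can hold such pairs, so the distance classes do not draw on the same hot spots. Pairs on the same strand differed by 2.07 and pairs on opposite strands by 2.14. Pairs from the same pool differed by 2.18 and pairs from different pools by 2.10.

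**Figure D5:**
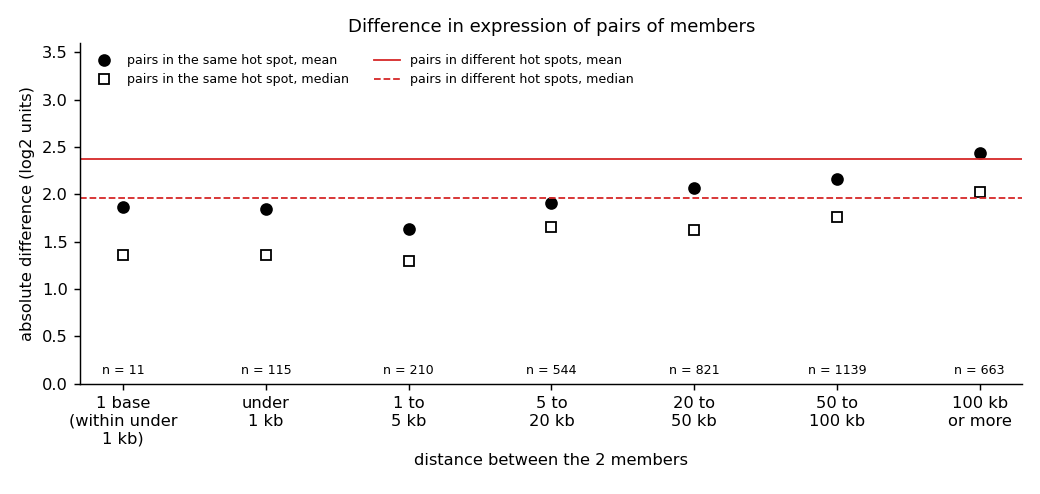
Absolute difference in expression, in log2 units, of pairs of members in the same hot spot by the distance between them, as mean (filled circles) and median (open squares), with the number of pairs; the pairs 1 base apart are also counted under 1 kb. Red lines give the mean (solid, 2.37) and the median (dashed, 1.96) of pairs in different hot spots. Means run from 1.63 at 1 to 5 kb to 2.44 at 100 kb or more.

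The closest pairs lay 1 base apart. No 2 rows of the table shared a position, and 80 pairs lay 1 base apart in the whole table, all 80 on opposite strands and all with the minus strand at the lower position. Among hot spot members there were 11 such pairs, 10 of them from different pools. They differed by a mean of 1.86 log2 units and a median of 1.36, and over the whole table the mean was 2.06 (80 pairs), against 1.73 for neighbouring integrations more than 1 base but under 1 kb apart (576 pairs). Member pairs more than 1 base but under 1 kb apart differed by 1.95 on opposite strands and 1.74 on the same strand (52 pairs each). Whether the 2 integrations of a pair 1 base apart share 1 TTAA was not checked, because no genome sequence was used.

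Of the 11 pairs, 1 differed more than 16-fold (9.09%, against 13.3% of all pairs within hot spots). At chr14:86726282 and chr14:86726283, the minus-strand reporter of mPGK-E had 320 and 322 RNA reads for 363 and 372 DNA reads and the plus-strand reporter of mPGK-B had 48 and 38 RNA reads for 1036 and 1179 DNA reads. Their values of 1.35 and -3.24 differ by 24.0-fold, and one was called higher and the other lower. The pair at chr4:10953525 and chr4:10953526 showed -1.98 on the minus strand and 1.99 on the plus strand, a 15.6-fold difference in the other strand order. Both members of the pair at chr8:109130775 and chr8:109130776 came from mPGK-E, and they had values of 3.83 on the minus strand and 0.11 on the plus strand, a 13.2-fold difference within 1 pool. The other 8 pairs differed by 1.42-fold to 2.69-fold. In the closest of them, chr14:73246161 and chr14:73246162, the values were 1.90 on the minus strand and 1.40 on the plus strand. Of the 11 pairs, the minus-strand reporter was the higher one in 7 and the plus-strand reporter in 4.

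The highest members were spread over 3 chromosomes. The reporter at chr11:69494934 on the plus strand of mPGK-E had 5674 and 5259 RNA reads for 143 and 83 DNA reads, a value of 7.19, which is 146-fold above the pool median (edgeR log2 ratio 7.15, adjusted p = 2.54e-07). The reporter at chr6:39384478 had 56682 and 43798 RNA reads for 1459 and 1358 DNA reads, 92.6-fold above it (edgeR adjusted p = 6.42e-07), and that at chr8:91569147 had 13844 and 17290 RNA reads for 454 and 660 DNA reads, 82.6-fold above it (edgeR adjusted p = 2.48e-31). These p-values cannot be ranked between pools, since edgeR was fitted to each pool alone with 2 technical cultures. The cultures gave 6.87 and 7.50 for the first reporter, 6.67 and 6.41 for the second and 6.34 and 6.37 for the third. For the first reporter the lower DNA count of the cultures, 83, was below the median of 731 that members had for this count. The 3 pairs of members under 5 kb apart that differed most were chosen after the values had been seen. The pair at chr6:39350093 and chr6:39350585, 492 bp apart, had -0.90 in mPGK-A and 5.93 in mPGK-D. Its low member had 6 and 26 RNA reads for 49 and 105 DNA reads and was not called lower. The pair at chr4:137313766 and chr4:137316371, 2605 bp apart, had 3.17 in mPGK-A and -3.61 in mPGK-D, which is 110-fold. The pair at chr10:62605834 and chr10:62606560, 726 bp apart, had -5.93 in mPGK-C and 2.40 in mPGK-D, the low member having 0 and 22 RNA reads in its cultures.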

How the data were processed

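The deposited table gives, per the file headers, raw counts of RNA reads (expression) and DNA reads (normalization) for each barcode and culture, with pool, chromosome, position and strand. Per the labels' protocols, sites were mapped by inverse PCR after DpnII digestion, and the 72 libraries form 18 groups of 4 (2 cultures, each with 2 PCRs). The submitters' processing notes name Bowtie2 2.0 and the build mm9. Not given in the sources used here are how PCRs were combined, the filters on barcodes and positions, and whether positions count from 0 or 1. Coordinates are those of mm9 as listed, and no annotation of that build was used, so no genes are named.

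Neighbours were counted over all pools. Expression was computed as described with Python 3.11.15, numpy 2.4.6, pandas 2.3.3 and scipy 1.17.1, with a pseudocount of 0.5 RNA reads. The 6 differences between members and others within pools were tested by all 64 sign patterns (two-sided), with Benjamini-Hochberg adjustment over 7 tests. The count test was edgeR 4.0.16, run pool by pool under R 4.3.3 (glmQLFTest, filterByExpr, which removed 0 barcodes, TMM), then shifted by 0.23 to 0.27 log2 units so that the median ratio was 0. Both tests were tested on simulated data. Per the labels, the same replicate number marks RNA and DNA of the same culture, so numbers pair the samples; the correlation of their deviations was -0.0021 to 0.057. Integrations are not replicates of a condition, and the 2 cultures are technical.

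Named hot spots are the 10 with the most members and, among those with 8 or more members from 4 or more pools, the 5 highest and 5 lowest means and the 3 widest and 3 tightest SDs. Named integrations are the 3 highest members, the extremes of named hot spots and members without RNA reads, of which there were 0. Pairs 1 base apart, pairs under 5 kb and distances from hot spots were chosen after their values were seen. The members, lists and tests were chosen with earlier results of these data known. Alternatives were a pseudocount of 5, leaving out low DNA counts, other neighbour rules, each culture or pool left out, and other count models including DESeq2 1.42.0.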

Additional observations from a re-analysis of the deposited data

Results flagged for a closer look

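The median log2 DNA share of hot spot members was -12.43 in mPGK-B, lower than in the other 5 pools, and its gap to the nearest of them was 0.640 of the range over the 6 pools, which stands out for 6 values. The other integrations of mPGK-B had -12.26, so members and others of that pool differed by -0.16. Of the 25 groups of 6 pools examined this was the only one, and chance alone marks about 1 in 20.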

How the results depend on the processing

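The number of members depended on the rule: 156 with 10 or more neighbours, 2802 with 5 or more, 119 with a 50 kb radius, and 384 to 477 when the rule was applied without 1 pool, since fewer integrations are then left to be neighbours. No barcode was listed at the same place in 2 pools, so using such barcodes once changed nothing. The differences in expression, in both shares and in SD kept their direction and their adjusted p of 0.0547 with a pseudocount of 5, without the lowest 10% of DNA counts, with 10 or more neighbours, with a 50 kb radius and with each culture alone; the expression difference was 1.55 to 2.19 under these. Without 1 pool it was 1.58 to 1.74, and no sign-flip test over 5 pools can pass (smallest p 0.0625). In this and the other comparisons without 1 pool, members stayed as found over all 6 pools. The distance comparisons, with adjusted p = 0.0625 in the sign-flip test, were then 0.54 to 0.69 (members against integrations within 100 kb), 1.13 to 1.21 (these against over 3 Mb) and 0.33 to 0.40 (300 kb to 1 Mb against over 3 Mb). The difference in SD, -0.29, was -0.10 with a pseudocount of 5 and -0.59 with 10 or more neighbours, and that between pairs in the same and in different hot spots, -0.21, was -0.06 with a 50 kb radius and -0.14 to -0.28 without 1 pool, without passing in any of these. The difference in DNA share, -0.013, was 0.015 in the first culture alone, -0.066 in the second, -0.037 to 0.018 without 1 pool, -0.16 with 10 or more neighbours (lower in 5 of 6 pools) and -0.089 with a 50 kb radius. The share of variance between hot spots was 30.9% with a 50 kb radius, and 16.2% to 20.9% without 1 culture or pool; the lowest was without mPGK-B. The cause was not tested. The counts of members called higher and lower were 550 to 582 and 90 to 139 over the count models; the paired fit with the replicate block gave 580 and 108 and changed no count by over 1.5 times. Of 687 calls, 677 were kept under the block, 657 under TMM without the shift (550 higher and 139 lower) and 682 with DESeq2, and none turned. Of 423 values of named integrations under other count models, 21 lost their call, 4 gained one and 0 turned, and of 92 alternative means of named hot spots 28 moved by more than the spread between cultures (11 of 23 without low DNA counts, 7 of 23 with a pseudocount of 5) and none changed sign. Without chromosome 14 or without barcodes listed in more than 1 row, both chosen after seeing the data, the expression difference was 1.72 and 1.67. Depth limits the low end: members with few RNA reads owe their values in part to the pseudocount.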
